A study of Bos taurus with 8 samples.

Results

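The small heat shock protein genes HSPB1, HSPB2, HSPB6, HSPB8, HSPB11 and CRYAB were compared between denuded germinal vesicle oocytes collected in summer and in winter. They were chosen by symbol, and each symbol matched 1 row of the table, which gave 6 of 26804 genes. The 4 summer libraries (A, B, C and E) and the 4 winter libraries (A, B, D and E) came from multiparous, non-lactating beef cows held as 1 herd. All cows were aspirated in both seasons, and each time they carried a progesterone device and received a GnRH analog and follicle-stimulating hormone before ultrasound-guided follicle aspiration, so both seasons share this stimulation. Each library was made from RNA pooled over cows of the same season, and follicles were aspirated once per season, so the season and the day of aspiration cannot be told apart. The p-values therefore measure the spread between pools. Grade 1 and grade 2 cumulus-oocyte complexes were used, stripped of cumulus cells with hyaluronidase and a vortex. The paper reports that the better of these grades was scarcer in summer, while the other made up a larger share of the recovered oocytes. The grades that entered each pool are not given in the sources used here, so season and grade cannot be told apart either. The part of grade in the differences was not tested.

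Small heat shock proteins are chaperones that need no ATP. They bind unfolding proteins through a conserved alpha-crystallin domain, form large oligomers and hold their clients until the HSP70 machinery refolds them or autophagy removes them. Several members are induced by heat through heat shock factor HSF1, while others are set mainly by cell type, with CRYAB, HSPB2, HSPB6 and HSPB7 abundant in muscle. HSPB11 carries the family name but is the IFT25 subunit of the intraflagellar transport B complex, which moves cargo along cilia. The question was whether these genes differ between oocytes of hot and cool months.

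Levels are TPM, the share of a library's transcripts that a gene contributes after scaling for gene length, which sums to the same total in every library and keeps no read depth, so no counting interval can be given. A difference is the mean log2(TPM + 1) in summer less that in winter, so the added 1 shrinks differences of genes near or below 1 TPM. Genes counted as called when limma gave an adjusted p below 0.05 together with a 2-fold or larger difference. Among 13379 genes tested, 9.57% were called, 4.4% higher in summer and 5.17% lower, 41.6% had an unadjusted p under 0.05, 29.5% had no overlap between the seasons, and the median difference was -0.03. All 15 oocyte markers checked passed the filter on low values and 13 were higher in summer. Their summed level was 13469 to 15718 TPM in summer and 4054 to 10139 TPM in winter. A pair of winter libraries stood apart: winter E held 36746 TPM of cumulus and granulosa markers, against 9161 to 10492 TPM in the other winter libraries, and winter A held 3537 TPM of epithelial markers, against 350 to 1085 TPM. Less RNA per cell and fewer cells of a type cannot be told apart in pooled material.

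Of the 6 genes, CRYAB and HSPB6 were lower in summer, none was higher, HSPB1, HSPB2 and HSPB11 were not called, and HSPB8 did not pass the filter on low values. That is 2 of the 5 genes tested, beside 9.57% of all tested genes called in either direction and 5.17% called lower, and HSPB2 was tested only because it passed the filter in winter. Among the 6 genes, CRYAB alone had no overlap between the seasons, beside 29.5% of all tested genes, and CRYAB, HSPB6 and HSPB11 had an unadjusted p under 0.05 (limma), beside 41.6%. HSPB1 made up 98.5 to 99.4% of their summed TPM in summer and 91.4 to 99.5% in winter, so the sum followed HSPB1 alone.

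**Figure D1:**
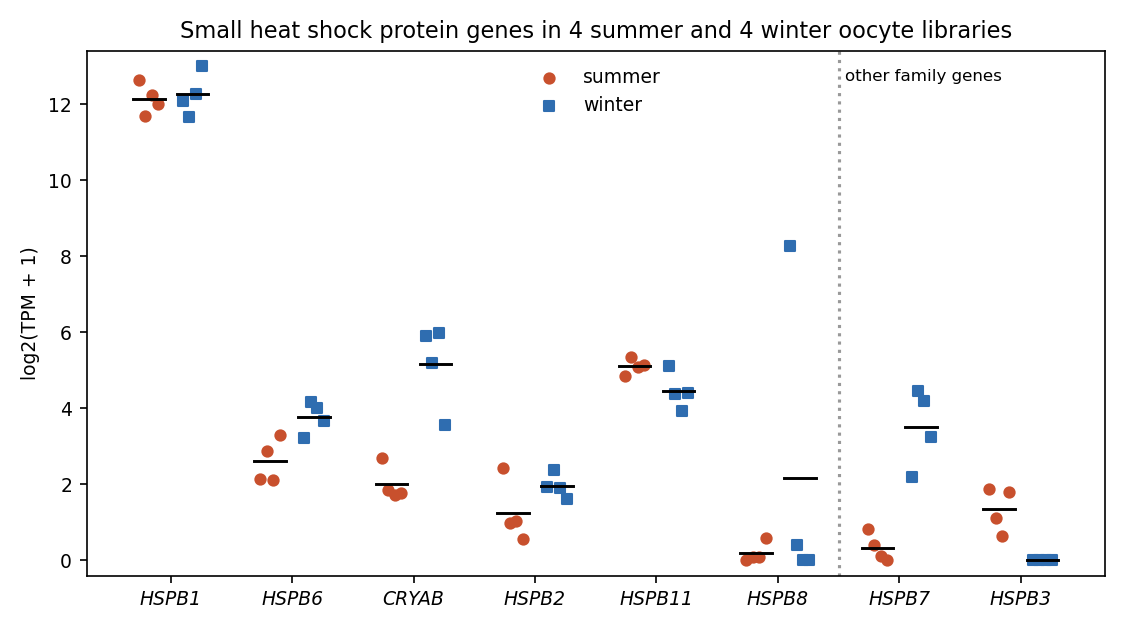
Level of each small heat shock protein gene, as log2(TPM + 1), in the 4 summer (circles) and 4 winter (squares) libraries, with a bar at the mean of each season. CRYAB and HSPB7 separate by season and are lower in summer. HSPB3 separates the other way, at 0.549 to 2.65 TPM in summer and 0 in winter. HSPB1 overlaps at a high level, and a single winter library holds the HSPB8 transcript at 306 TPM.

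HSPB1, which encodes the heat-inducible chaperone HSP27 that caps and protects actin filaments, was among the most abundant transcripts of these oocyte libraries. It stood at 6376, 3305, 4820 and 4108 TPM in summer A, B, C and E, against 4359, 3210.3, 4928 and 8245 TPM in winter A, B, D and E. The seasons overlapped almost fully, and winter E was the highest library. HSPB1 ranked between 2 and 13 among all genes of a summer library and between 3 and 17 in a winter library. The mean was 4652 ± 1305 TPM in summer and 5186 ± 2161 TPM in winter (SD, n = 4 each), a difference of -0.11 with a 95% interval of -0.78 to 0.56 (adjusted p = 0.801, limma). The interval holds no change of 2-fold or more in either direction, though a smaller one of either sign fits in it. The sign turned without winter E (0.14), without summer B (0.04) and after quantile normalization (0.23), and none of these was called. Winter E was also the library with 36746 TPM of cumulus and granulosa markers, while summer A, next in HSPB1, held 9238 TPM of them, and their part in the HSPB1 level was not tested.

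CRYAB, the alpha-B crystallin of lens, heart and skeletal muscle that binds desmin, actin and other filament proteins, had the widest gap between the seasons among the 6 genes. It stood at 5.53, 2.60, 2.30 and 2.40 TPM in summer A, B, C and E, against 59.0, 35.2, 62.2 and 10.9 TPM in winter A, B, D and E. Every winter library lay above every summer library, winter E was the lowest of its season, and summer A was the highest of its own. The mean was 3.21 ± 1.55 TPM in summer and 41.8 ± 23.9 TPM in winter, so that the summer mean was 0.0767 times the winter mean. The difference was -3.15 (SE 0.49, 95% interval -4.23 to -2.07, adjusted p = 0.00470, limma). With each library left out in turn it lay between -3.68 and -2.88 and was called every time, and without both winter A and winter E it was -3.57 (adjusted p = 0.00249, limma). In rank, CRYAB lay between 3140 and 8885 among the genes of the winter libraries and between 10284 and 12284 in the summer libraries.

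Markers of theca and stroma and of smooth muscle were among the genes that were lower in summer together with CRYAB. Of 11 tested theca and stroma markers, 8 were called lower and none higher, beside 5.17% of all tested genes called lower. Their summed levels were 474 to 601 TPM in summer and 692 to 2676 TPM in winter. Of 12 tested smooth muscle markers 5 were lower and none was called higher, with 927 to 1178 TPM in summer and 1482 to 1857 TPM in winter. Of the lower genes, 4 of the 8 and 3 of the 5 passed the filter on low values in winter only, where they were high. Of the cumulus and granulosa markers 2 of 16 were called lower, but all 16 had a lower mean log2(TPM + 1) in summer. In plain TPM the mean of PTX3 was higher in summer, at 57.1 TPM against 21.5 TPM. Their median difference was -0.68, beside -0.03 over all tested genes. Of the endothelial markers 1 of 5 was called lower, and 2 had a lower mean. None of the 6 tested epithelial markers was called, and 4 had a negative and 2 a positive difference. The most negative was that of KRT8 (-2.72, adjusted p = 0.0613, limma). The epithelial sums overlapped, at 200 to 661 TPM in summer and 350 to 3537 TPM in winter. They were highest in summer A within summer, and in winter A and then winter D (1085 TPM) within winter. The order of the theca and stroma sums within winter was not that of CRYAB. Winter A, lowest in these markers at 692 TPM, had CRYAB at 59.0 TPM. Winter B, highest at 2676 TPM, had it at 35.2 TPM. Genes within a list differed as well. Among theca genes, CYP17A1 was listed at 0 to 0.852 TPM in summer libraries and 0 to 0.523 TPM in winter libraries, while INSL3 averaged 107 TPM in summer and 129 TPM in winter, and STAR averaged 308 TPM in summer and 214 TPM in winter libraries. Of the smooth muscle genes, MYH11 stood at 2.91 to 8.17 TPM in summer libraries and 5.60 to 10.8 TPM in winter libraries, ACTA2 at 5.35 to 8.54 TPM in summer libraries and 13.04 to 73.5 TPM in winter libraries, and CNN1 averaged 72.3 TPM in summer and 50.4 TPM in winter. The part of such cells in the CRYAB difference was not tested.

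**Figure D2:**
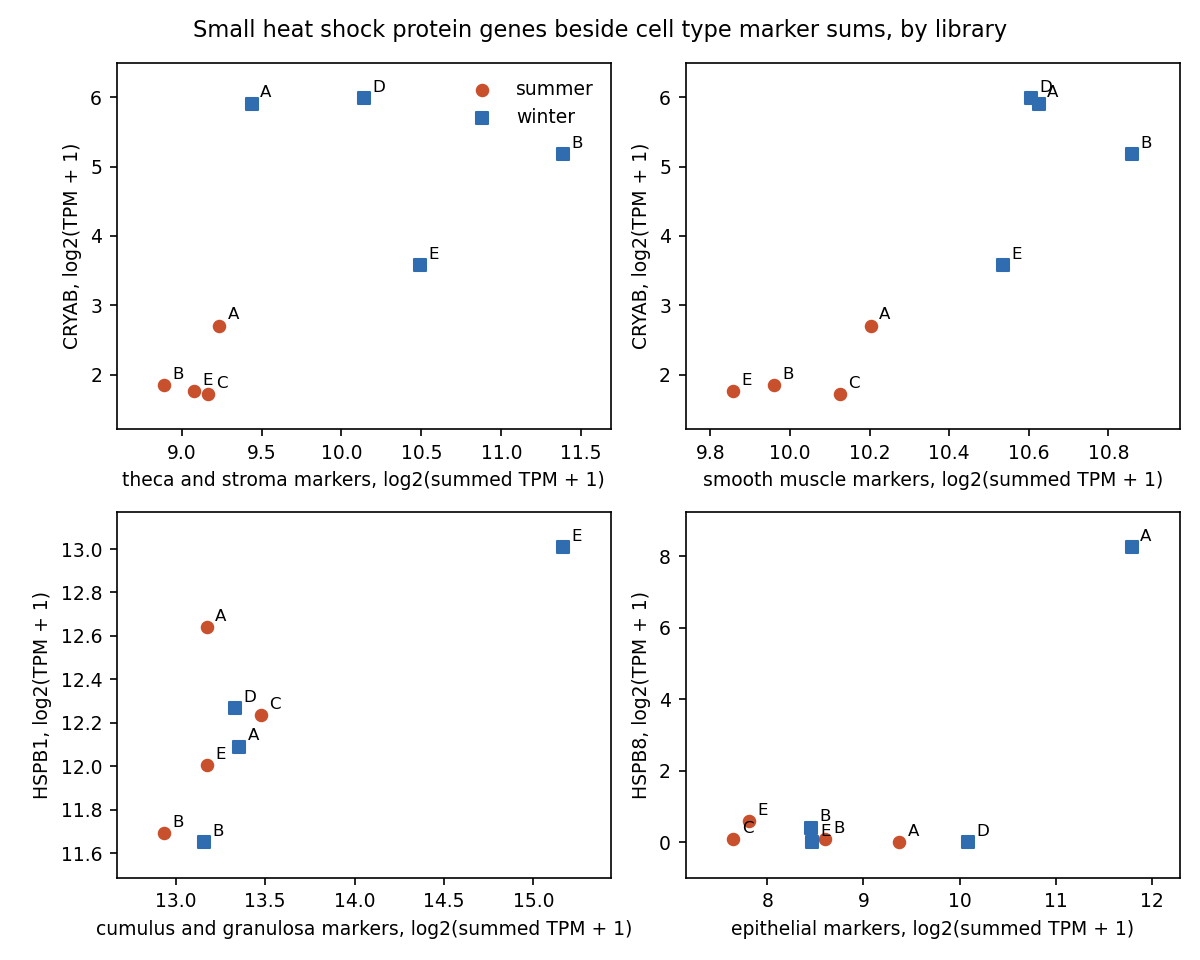
Small heat shock protein genes (vertical axes, log2(TPM + 1)) against the summed TPM of cell type markers (horizontal axes, log2 of the sum plus 1), 1 point per library with its letter, circles for summer and squares for winter. CRYAB and both marker sums are higher in the winter libraries, HSPB1 peaks in winter E at 8245 TPM, and HSPB8 is present in winter A, the library with 3537 TPM of epithelial markers.

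CRYAB and HSPB2 lie next to each other in the RefSeq order of the cattle genome, and in mammals both are read from a shared stretch of regulatory DNA between them. HSPB2, a muscle chaperone first described as a binder of myotonic dystrophy kinase, stood at 4.43, 0.978, 1.06 and 0.480 TPM in summer A, B, C and E, against 2.82, 4.22, 2.77 and 2.07 TPM in winter A, B, D and E. Summer A was the highest library of all, while the other 3 summer libraries lay below every winter library. The mean was 1.74 ± 1.81 TPM in summer and 2.97 ± 0.90 TPM in winter, a difference of -0.70 with a 95% interval of -1.60 to 0.19 (adjusted p = 0.212, limma). Without summer A it was -1.10 and was called (adjusted p = 0.0272, limma). CRYAB exceeded HSPB2 in every library, by 1.25 to 4.99 times in summer and by 5.26 to 22.4 times in winter, and these ratios of TPM did not overlap.

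The gene on the other side of HSPB2, C15H11orf52, went the opposite way to CRYAB. It stood at 72.6, 47.1, 69.7 and 55.2 TPM in summer A, B, C and E, against 13.1, 35.1, 15.4 and 14.6 TPM in winter A, B, D and E. No summer library overlapped a winter library, and the difference was 1.69 (SE 0.29, adjusted p = 0.00551, limma). C15H11orf52 was 13.1 to 30.3 times the level of CRYAB in the summer libraries and 0.222 to 1.34 times in the winter libraries, where it exceeded CRYAB in winter E alone. No other tested neighbour was called. DIXDC1, which acts in Wnt signaling, differed by -0.96 (adjusted p = 0.0777, limma), DLAT, a pyruvate dehydrogenase subunit, by 0.01 and FDXACB1 by -0.06. C15H11orf1 was too low to be tested, and ALG9 was not matched. The RefSeq models of CRYAB, HSPB2 and C15H11orf52 do not overlap each other, but that assembly is not the one the reads were mapped to, and whether reads were counted by strand is not given in the sources used here.

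**Figure D3:**
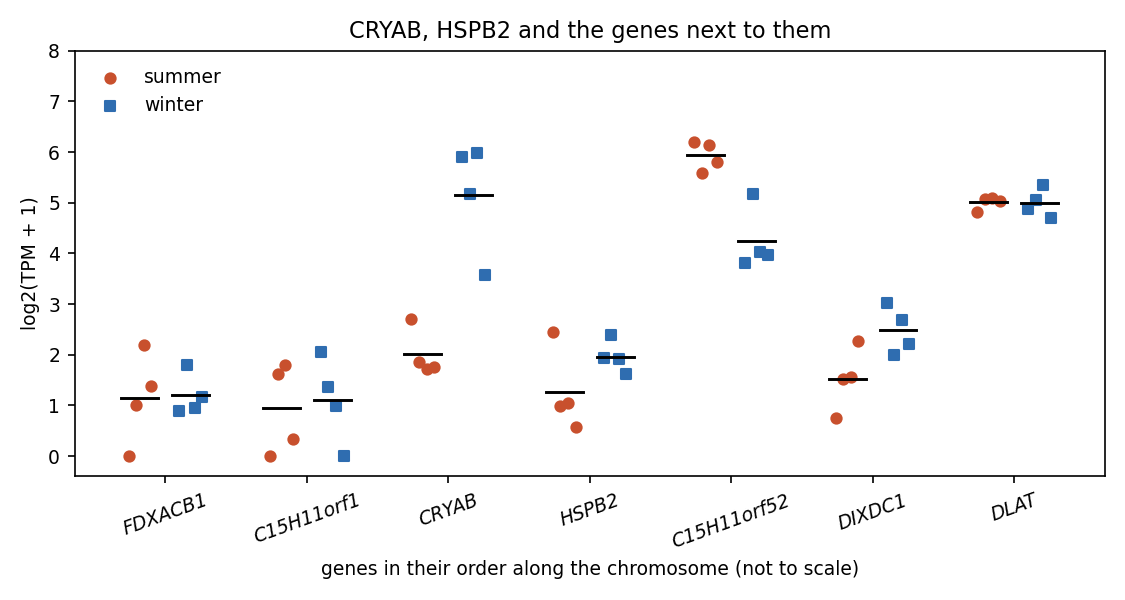
Level, as log2(TPM + 1), of CRYAB, HSPB2 and their neighbours in RefSeq order, with summer libraries as circles, winter libraries as squares and bars at the season means. CRYAB is lower in summer (difference -3.15), C15H11orf52 is higher (1.69), and HSPB2 between them overlaps.

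HSPB6, the chaperone HSP20 of smooth and cardiac muscle that is phosphorylated by cyclic nucleotide dependent kinases, was lower in summer by a narrow margin. It stood at 3.38, 6.34, 3.32 and 8.81 TPM in summer A, B, C and E, against 8.29, 17.0, 15.1 and 11.6 TPM in winter A, B, D and E. The seasons overlapped at 1 point, since summer E exceeded winter A. The mean was 5.46 ± 2.64 TPM in summer and 13.01 ± 3.85 TPM in winter, a difference of -1.16 (SE 0.33, 95% interval -1.89 to -0.43, adjusted p = 0.0275, limma). The call was lost without summer A (-1.004), summer B (-1.25), summer C (-0.997), winter B (-1.03), winter D (-1.08) or winter E (-1.20), with adjusted p from 0.0511 to 0.0753 (limma), and held without summer E or winter A. The smooth muscle and stroma marker sums given above were also higher in the winter libraries. Within winter, HSPB6 and both sums were highest in winter B. Within summer the order was not the same: summer E, highest in HSPB6, had the lowest smooth muscle sum, at 927 TPM. The part of such cells in the HSPB6 difference was not tested.

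HSPB8, which forms a complex with the co-chaperone BAG3 that sends misfolded proteins to autophagy, was a transcript of 1 library. It was listed at 0, 0.0601, 0.0653 and 0.516 TPM in summer A, B, C and E, against 306, 0.333, 0 and 0 TPM in winter A, B, D and E. Outside winter A no library reached 1 TPM, and in winter A the gene ranked 474 in its library. Since neither season had it expressed in all 4 libraries, it was not tested, and with no filter the difference was -1.98 with an SE of 1.67 (adjusted p = 0.463, limma). Winter A held 103 genes at 10 TPM or more that stayed under 1 TPM in each of the other 7 libraries, against 0 to 3 such genes in any other library, and HSPB8 ranked 7 among them. Others of that group, named after their values were seen, were the protease inhibitor gene TFPI2 (1096 TPM), the mesothelial gene MSLN (379 TPM) and OVGP1, the oviductal glycoprotein (330 TPM). The keratin gene KRT19 stood at 500 TPM in winter A, against 17.0 to 24.3 TPM in the other winter libraries and 33.4 to 51.2 TPM in summer. BAG3 itself was also highest in winter A, at 129 TPM against 49.8 to 53.6 TPM in the other winter libraries and 38.6 to 76.3 TPM in summer, and FLNC, the filamin that this complex clears in muscle, at 58.8 TPM against 5.71 to 11.8 TPM in the other winter libraries and 13.1 to 15.03 TPM in summer. BAG3, FLNC and KRT19 were named after their values were seen, and the part of epithelial cells in the HSPB8 level was not tested.

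HSPB11 was the only one of the 5 tested genes with a higher mean in summer, and it was not called. It stood at 27.6, 39.5, 32.8 and 34.4 TPM in summer A, B, C and E, against 33.5, 19.9, 14.3 and 20.1 TPM in winter A, B, D and E. Winter A sat within the summer range, and the other 3 winter libraries lay below it. The mean was 33.6 ± 4.89 TPM in summer and 21.9 ± 8.16 TPM in winter, a difference of 0.64 (SE 0.24, 95% interval 0.11 to 1.18, adjusted p = 0.0701, limma). Without winter A it was 0.86 and the adjusted p was 0.0173 (limma), still short of 2-fold. In the intraflagellar transport B complex, 1 of the 16 other subunits tested was called higher and none lower, beside 4.4% and 5.17% of all tested genes. The median difference of these subunits was -0.10. The called subunit was CLUAP1 (163 ± 11.9 TPM in summer against 79.6 ± 15.9 TPM in winter, difference 1.05, adjusted p = 0.00464, limma), which fell short of 2-fold without winter E (0.90). IFT52 differed by 0.70 (adjusted p = 0.0296, limma), IFT81 by -0.60 (adjusted p = 0.223, limma) and IFT80 by -0.35 (adjusted p = 0.293, limma). IFT81 was highest in winter A (16.6 TPM against 4.15 to 7.51 TPM in the other winter libraries), as was IFT80 (9.39 TPM). IFT52 instead peaked within winter in winter B (54.2 TPM). Winter A alone held the axonemal dynein genes DNAH5 (11.8 TPM) and DNAH9 (12.5 TPM), named after their values were seen. The part of its cells in these levels was not tested. IFT27, the small GTPase that binds IFT25 directly, averaged 42.9 ± 8.10 TPM in summer against 47.7 ± 6.51 TPM in winter, a difference of -0.16 (adjusted p = 0.509, limma). It was named for that partnership.

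**Figure D4:**
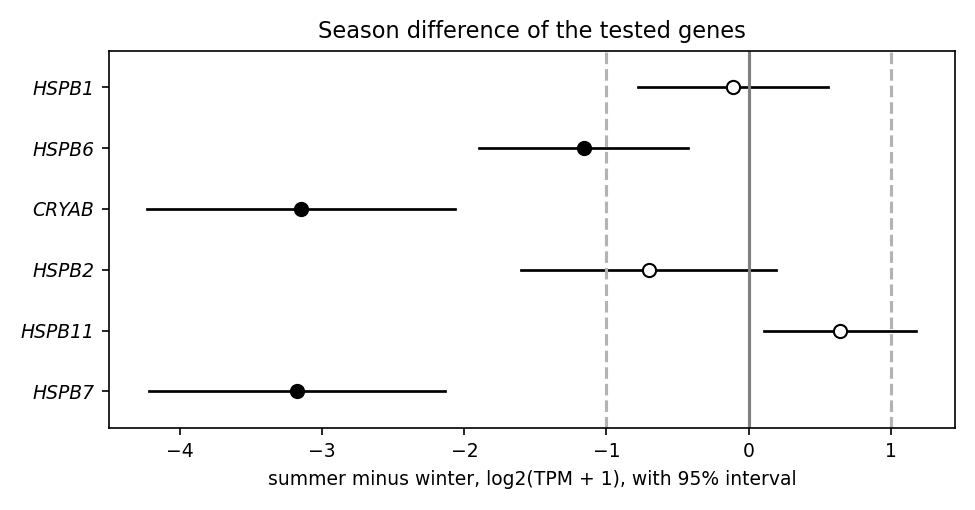
Difference between summer and winter on the log2(TPM + 1) scale for the 5 tested genes and HSPB7, with 95% intervals from limma. Filled points were called, dashed lines mark the 2-fold limit, and CRYAB (-3.15) and HSPB7 (-3.18) lie far below it.

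Among 5 other genes of the family, the heart chaperone gene HSPB7 was the single one that passed the filter, and it did so in winter only. It stood at 0.770, 0.330, 0.0895 and 0 TPM in summer A, B, C and E, against 3.56, 20.9, 17.3 and 8.42 TPM in winter A, B, D and E. Every winter library lay above every summer library. The difference was -3.18 (SE 0.47, adjusted p = 0.00406, limma), and the call held whichever library was left out (-3.62 to -2.87). Among the winter libraries HSPB7 was lowest in winter A and highest in winter B, as were the theca and stroma markers (692 TPM in winter A and 2676 TPM in winter B), and the part of such cells in the HSPB7 difference was not tested. HSPB3, a muscle chaperone that pairs with HSPB2, had the reverse pattern, at 2.65, 1.18, 0.549 and 2.48 TPM in summer A, B, C and E, and was listed at 0 in all 4 winter libraries. It did not pass the filter, and with no filter it was called higher (difference 1.36, adjusted p = 0.0163, limma), where 2.73% of 18555 genes were. ODF1, a sperm tail protein also counted in the family, was listed at 0 to 2.98 TPM in summer libraries and 0 to 0.718 TPM in winter. The lens gene CRYAA and the testis gene HSPB9 were listed at 0 in all 8 libraries.

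Transcripts of the chaperones that work with small heat shock proteins had higher or lower means in summer, all by less than 2-fold on the log2(TPM + 1) scale. Without the added 1, the HSPA1L means, 6.82 TPM in summer and 3.24 TPM in winter, were more than 2-fold apart (difference 0.90, adjusted p = 0.0318, limma). HSPA1L was named after its values were seen. Of 16 partners tested, none was called, beside 9.57% of all tested genes, and 9 had an unadjusted p under 0.05 (limma), beside 41.6%. Of these partners 4 had an adjusted p under 0.05 with a higher mean and 2 with a lower mean in summer, and the median difference was -0.17, beside -0.03 over all tested genes. HSPA8, the constitutive HSP70, was the most abundant partner with 1595 ± 201 TPM in summer against 2264 ± 445 TPM in winter (difference -0.49, adjusted p = 0.0698, limma). VCP, an ATPase that extracts ubiquitinated proteins, averaged 239.9 ± 16.2 TPM in summer against 384 ± 42.5 TPM in winter (difference -0.67, adjusted p = 0.00664, limma). The testis-rich HSP70 gene HSPA2 (0.84, adjusted p = 0.0276, limma) and the co-chaperone gene DNAJB1 (0.64, adjusted p = 0.0286, limma) had higher means in summer.

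None of the 3 tested heat shock factor genes was called, nor was HSF2BP, the gene of an HSF2 partner. HSF1 averaged 114 ± 11.9 TPM in summer against 98.1 ± 17.3 TPM in winter (difference 0.22, adjusted p = 0.298, limma). HSF2 differed by -0.46 (adjusted p = 0.0621, limma) and HSF4 by -0.64 (adjusted p = 0.105, limma), while HSF2BP differed by 0.36 (adjusted p = 0.358, limma). HSF activity is set largely by the protein, which these data do not measure.

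Among kinases that phosphorylate small heat shock proteins or act above those that do, 1 of 11 was lower and none higher. Over all tested genes, 5.17% were called lower and 4.4% higher. The median difference of these kinases was -0.27. The lower one was MAPK13, the delta form of p38, with 4.22 ± 2.11 TPM in summer against 23.5 ± 8.74 TPM in winter (difference -2.23, adjusted p = 0.00446, limma), and no single library decided the call. MAPKAPK2, the main kinase of HSPB1, had a higher mean in summer at 238 ± 28.0 TPM against 155 ± 31.3 TPM in winter (difference 0.63, adjusted p = 0.0182, limma), short of the 2-fold limit. The protein kinase A subunit genes PRKACA (-0.53, adjusted p = 0.0199, limma) and PRKACB (-0.49, adjusted p = 0.106, limma) also stayed under that limit.

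Of 9 tested cytoskeletal clients, 2 were called lower and none higher in summer, beside 5.17% and 4.4% of all tested genes. The median difference of the clients was -0.41. DES, the muscle intermediate filament desmin that CRYAB binds, stood at 0.967, 1.13, 0.267 and 0.0603 TPM in summer A, B, C and E, against 9.04, 2.45, 3.51 and 3.80 TPM in winter A, B, D and E. The seasons did not overlap, as for 29.5% of all tested genes, and winter A was the highest (difference -1.76, adjusted p = 0.0113, limma). DES passed the filter in winter only, and without both winter A and winter E the difference was -1.36 and was not called (adjusted p = 0.0677, limma). The actin cross-linker gene FLNA averaged 92.8 ± 11.6 TPM in summer against 217 ± 24.6 TPM in winter (difference -1.22, adjusted p = 0.00192, limma), and no single library decided the call. DES is also 1 of the 5 lower smooth muscle markers, and the part of smooth muscle cells in its difference was not tested. The focal adhesion gene PXN had a higher mean in summer, at 175 ± 32.3 TPM against 96.8 ± 31.4 TPM in winter (difference 0.89, adjusted p = 0.0210, limma), with no overlap. VIM, the most abundant of the list, differed by -0.41 (adjusted p = 0.126, limma), and the tubulin gene TUBB by -0.71 (adjusted p = 0.0128, limma).

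The genes whose profile over the 8 libraries lay closest to that of CRYAB, by the root mean square difference of centred log2(TPM + 1) values, were the sulfotransferase gene SULT1A1 (0.37), CDC42EP1, an effector of the GTPase CDC42 (0.38), the immune surface gene CD83 (0.42), the retinoic acid hydroxylase gene CYP26B1 (0.49) and the surface glycoprotein gene CD99 (0.52). SULT1A1 stood at 9.54, 2.88, 3.61 and 1.82 TPM in summer A, B, C and E, against 51.4, 30.8, 44.5 and 12.3 TPM in winter A, B, D and E. As for CRYAB, its lowest winter library was winter E and its highest summer library was summer A. For HSPB6 the closest profiles were those of the heparan sulfate proteoglycan gene GPC1 (0.23), the receptor gene F2RL2 (0.24) and the lysosomal gene CTSA (0.25). For HSPB8 they were the complement gene C3 (0.74) and the claudin genes CLDN7 (0.92) and CLDN3 (0.94). For every member only the 12608 tested genes with a symbol were compared. Genes seen in winter A alone that failed the filter, such as OVGP1 (330 TPM there, at most 0.669 TPM elsewhere), were therefore left out. C3 stood at 539 TPM in winter A and at 5.38 to 9.94 TPM in the other 7 libraries. For HSPB1 the nearest were RPAP3 (0.19), an HSP90 co-chaperone, LSM5 (0.20) and RYK (0.21), for HSPB2 WFDC3 (0.25), COMTD1 (0.26) and TMSB10 (0.26), and for HSPB11 NEMP1 (0.10), ELF1 (0.12) and SLC26A4 (0.15). These distances describe 8 pooled libraries and were not tested.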

How the data were processed

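Libraries were made from polyadenylated RNA of pooled oocytes and read as paired ends. The deposited values are TPM that the authors computed after trimming and mapping the reads to a cattle genome. CLC Genomics Workbench with TMM scaling appears in the study's methods. Bowtie2 2.2.2, bcl2fastq, DESeq2 and ARS-UCD1.2 appear in the processing notes of the submitters, and the sources used here do not say which set produced the deposited table. TPM keeps no depth, so the precision from counting is unknown.

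Groups came from the sample titles. zFPKM was computed per library from a half-Gaussian fitted to log2 TPM, and genes with zFPKM above -3 in all 4 libraries of a season (a lower limit of 0.368 to 1.01 TPM) entered limma 3.58.1 (R 4.3.3), fitted to log2(TPM + 1) by season alone, with a trend in the moderation and p-values adjusted by Benjamini-Hochberg over 13379 genes. The test was also run on simulated data. RefSeq (ARS-UCD2.0) gave only the order of neighbouring genes, HSPB11 being listed there as IFT25. No sequence was printed. The members and the lists were chosen with earlier results of these data known. The text names every member and family gene, the called members of each list with the most abundant and the smallest p up to 4, the nearest profiles, and 3 neighbours on each side of CRYAB and HSPB2. Other pseudocounts, filters, scalings, moderation, weights, a block for the library letter, and leaving out every library singly were tried as alternatives.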

Additional observations from a re-analysis of the deposited data

Results flagged for a closer look

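In each season, a library was looked for whose gap to the nearest of the others, over the season's range, exceeded Dixon's 95% limit, which chance passes in about 1 of 20 groups. Among 144 groups of 4 libraries (72 genes), 23 passed, 5 of them in the 22 groups of small heat shock protein genes. These were HSPB8 in winter A (306 TPM), CRYAB in summer A (5.53 TPM against 2.30 to 2.60 TPM), HSPB2 in summer A (4.43 TPM), and, at levels under 1 TPM, HSPB8 in summer E (0.516 TPM) and ODF1 in winter B (0.718 TPM).

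Winter A was the highest library in 12 of the 23. Beside HSPB8 these were the chaperone partner genes BAG3 (129 TPM), DNAJB1 (434 TPM) and DNAJB2 (27.6 TPM), the filamin gene FLNC (58.8 TPM), the kinase gene MAP2K3 (136 TPM), and IFT46 (37.3 TPM), TRAF3IP1 (25.1 TPM), IFT80 (9.39 TPM) and IFT172 (8.71 TPM) of the intraflagellar transport B complex, with HSF5 (0.818 TPM) and MAPK12 (0.715 TPM) at low levels. The others were BAG1 (95.8 TPM) and PRKACA (59.6 TPM), highest in winter D, HSF2, lowest in winter D (19.8 TPM), PRKACA, highest in summer C (42.6 TPM), and TTC30B (3.95 TPM), MAPK12 (1.25 TPM) and MAPK11 (0.183 TPM), highest in summer E.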

How the results depend on the processing

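CRYAB kept its direction and its call under all 19 alternatives (differences from -3.68 to -1.83), as did HSPB7 (-5.15 to -1.06). The HSPB6 difference lost its call with a pseudocount of 10 (-0.57, short of 2-fold), with no filter (-1.16, adjusted p = 0.0552, limma), after quantile normalization (-0.98) and with a replicate block for the library letter (-0.91, adjusted p = 0.126, limma), and it ranged from -1.39 to -0.997 with each library left out. HSPB2 ranged from -1.10 to -0.47 with each library left out and was called without summer A and, in an alternative chosen after seeing the data, without both libraries of letter A (-1.11). HSPB1 turned sign after quantile normalization (0.23), without winter A and winter E, also chosen after seeing the data (0.18), and within its range of -0.31 to 0.14 with each library left out. HSPB11 stayed between 0.47 and 0.95 and was never called. Where an alternative changed a call, the cause was not tested. Over all genes, 589 were higher and 692 lower, against 189 and 232 with a pseudocount of 10 and 179 and 296 with the replicate block. With each library left out 271 (without winter E) to 983 (without winter B) were higher and 511 to 756 lower, and without winter A and winter E 214 were higher. The letters A, B and E occur in both seasons, while C and D do not. The deviations of the same letter correlated by 0.05, 0.14 and 0.20, and each of these 6 libraries correlated best with its own letter. The paper dropped a failed summer replicate along with the winter replicate that corresponded to it, so its replicates had counterparts across seasons. The libraries kept nevertheless carry C in summer only and D in winter only. The sources used here do not state whether a letter marks the same cows in both seasons. The main fit therefore held season alone, and a pairing by letter was not excluded. The block changed no other call among the 6 genes, and among the other genes given an alternative it ended those of C15H11orf52 (1.55, adjusted p = 0.0501, limma), DES (-1.74, adjusted p = 0.0625, limma), F2RL2 (-0.82) and CTSA (-0.89). TPM keeps no depth, so genes near 1 TPM, such as HSPB2 and HSPB3, are the least certain.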
